A study of Mus musculus with 6 samples.

Results

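The genes described here are 50 genes of DNA replication and S phase in the mouse corneal epithelium. They were taken by name from a list of replication proteins, among 17784 genes with an expression value. The list was chosen with earlier results of these data known, so it was not blind to them. The list covers the MCM2-7 helicase (6 genes), origin recognition and licensing (6), helicase activation (6), the DNA polymerases and primase (9), the sliding clamp and its loader (6), replication protein A (3), Okazaki fragment maturation (4), nucleotide supply (4), chromatin duplication (3) and control of the G1/S transition (3). All 50 were present in the table and all 50 passed the filter for low counts, which left 12999 genes for testing.

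Before each division a cell copies its genome from many origins. In G1 the origin recognition complex, Cdc6 and Cdt1 load the ring-shaped MCM2-7 helicase onto DNA, and in S phase Cdc45 and the GINS complex turn that ring into an active helicase at which the polymerases work. Many of these genes are transcribed around the G1/S transition under E2F factors, so their mRNA is commonly read as a sign of cycling cells. In the corneal epithelium division takes place in the basal layer and the limbus, while the cells above leave the cycle and differentiate.

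RNA-seq was performed on corneal epithelial cells from 3 *Prrx1-CreERT;Ptch1 f/f* samples, called *Ptch1*-ablated here and KO in the labels, and from 3 *Ptch1 f/f* control samples, labelled WT. *Ptch1* encodes Patched, the receptor that holds Hedgehog signaling off. All mice received 3 doses of tamoxifen, the controls included, at an age that the labels give as 10 weeks and the study's text as 2 months, with collection 2 months later. *Prrx1-CreERT* is a tamoxifen-inducible recombinase active in keratocytes and other ocular mesenchyme, so deletion was directed at cells beneath the epithelium and not at the cells sequenced. The epithelium was separated with EDTA and each sample was a bulk preparation, in which a larger share of S-phase cells and more RNA per cell cannot be told apart. The sex of each sample is not given in the labels, and the study used mice of both sexes.

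Expected counts summed to between 20296700 and 20625800 per sample, and the lowest value of any of the 50 genes in any sample was 52.0 counts. *Ptch1* (gene 19206) had 517, 659 and 682 normalized counts in controls 1, 2 and 3 and 389.7, 445 and 471 in *Ptch1*-ablated samples 1, 2 and 3. The groups did not overlap, and edgeR's quasi-likelihood test gave a log2 fold change of -0.51 with a standard error (SE) of 0.13 (adjusted p = 0.0401, edgeR). Because deletion was directed at cells other than those sequenced, these values were not taken as a check of it. What lowered them was not tested. Markers of the corneal epithelium (11 genes, among them *Krt12*, *Pax6* and *Aldh3a1*) summed to 107718 to 116035 TPM (transcripts scaled for length and depth) in controls and 95896 to 118018 TPM in *Ptch1*-ablated samples, in keeping with the labelled tissue. On the first principal component of all tested genes, with 58.1% of the variance, *Ptch1*-ablated sample 1 lay at 51.7, apart from the other two of its group at 18.3 and 19.1, and the controls lay between -33.7 and -26.5.

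The replication genes were higher in the *Ptch1*-ablated epithelium by a modest and broadly shared amount. Of the 50 genes, 46 (92.0%) had a log2 fold change above 0, against 48.5% of all tested genes, and the median was 0.45 (range -0.087 to 0.78), against -0.0099 over all tested genes. At an adjusted p of at most 0.05, 18 of the 50 (36.0%) were called higher and 0 lower. Over all tested genes 7.61% were called higher and 6.41% lower. The samples of the groups did not overlap for 32 of the 50 genes, each time with the *Ptch1*-ablated samples above the controls, while over all tested genes this was so for 19.7% in that direction and for 20.3% in the other. The remaining 18 genes overlapped between the groups.

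None of the 50 genes had a 2-fold difference between the groups. A 2-fold minimum beside the adjusted p is the rule of the study's methods. Under it, 0 of the 50 were called in either direction, while 2.34% of all tested genes were called higher and 0.892% lower. The largest log2 fold change was that of *Rrm2*, 0.78, or a 1.72-fold higher level. Added up, the 50 genes made up 1135, 1166 and 1036 TPM in controls 1, 2 and 3 and 1484, 1459.7 and 1377 TPM in *Ptch1*-ablated samples 1, 2 and 3. Every *Ptch1*-ablated sample therefore lay above every control, and the ratio of the group means was 1.29.

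**Figure D1:**
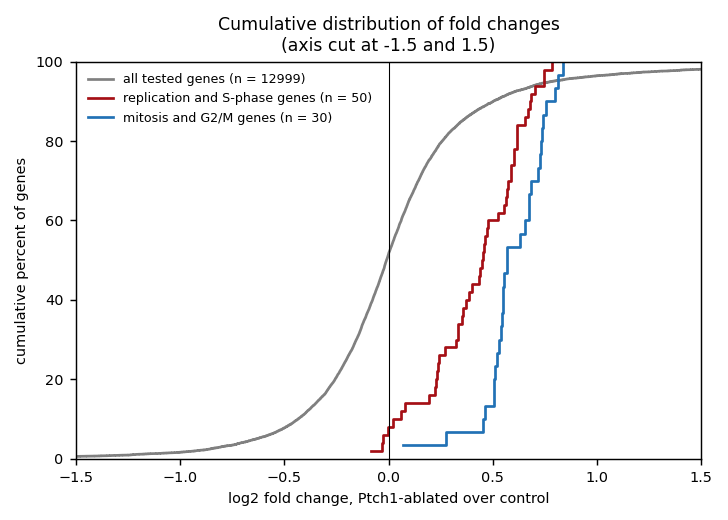
Cumulative percent of genes (vertical axis) at or below each log2 fold change of *Ptch1*-ablated over control (horizontal axis), for all 12999 tested genes, the 50 replication and S-phase genes and 30 genes of mitosis and G2/M. The curve of the replication genes lies to the right of that of all genes, with a median of 0.45 against -0.0099, and ends below 1, the value of a 2-fold change.

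E2F-like letters were found in a larger share of the promoters of these genes than of promoters at large. RefSeq promoter windows (GRCm38.p6, 250 bases before to 50 after the start, a later build than the one the expression values were made on) were available for 41 of the 50 genes. The windows were searched on both strands for the 4 words TTTCCCGC, TTTCGCGC, TTTGCCGC and TTTGGCGC, which can overlap each other. At least 1 word was found for 15 of the 41 genes (36.6%), against 4.63% of 10204 tested genes with a window. The share was 40.0% (6 of 15) among replication genes called higher and 34.6% (9 of 26) among those not called, so the letters were found at a like rate in both. Of the MCM2-7 genes, 4 of 5 with a window held a word. The polymerases and primase had 4 of 7 and origin recognition and licensing 3 of 5. Helicase activation and chromatin duplication each had 1 of 3, Okazaki fragment maturation 1 of 4 and the clamp and its loader 1 of 5. Nucleotide supply had 0 of 4, replication protein A 0 of 3 and G1/S control 0 of 2. Shares like that of the 41 genes together were found in further lists described below. They were 30.0% (6 of 20) for replication factors, 36.4% (4 of 11) for chromatin duplication and 34.8% (8 of 23) for G1/S control. The share was 21.1% (4 of 19) for checkpoint and repair genes and 0 of 11 for nucleotide synthesis. A larger share than at large was therefore not particular to the 50 genes. For comparison, the CHR words TTTGAA and TTCGAA, named after an element of G2/M genes, were found for 7 of the 41 replication genes (17.1%) and for 16.7% of the 10204 genes, and the CCAAT word for 61.0% and 43.1%. A match is a run of letters and not a shown binding site.

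E2F words upstream of the start are given here for 7 genes, chosen because they hold such a word and to show its letters and its place. *Gins3* (41 to 34 bases before the start) and *Mcm7* (165 to 158) hold upstream words as well. Neither was called, and they are not shown, so the share of called genes among the 7 is not a result. The 7 genes shown do not stand for all the genes called. Of the genes called in at least 14 of 15 alternative fits, *Rrm2*, *Rrm1*, *Pola2*, *Fen1* and *Chaf1a* held none of the 4 words. *Pola1* and *Lig1*, also in this set, held a word, and *Mcm4* and *Pole* had no window. The matched word at the given position is in capitals with up to 10 flanking bases on each side, 5′ to 3′ on the strand of the gene.
*Mcm5* (chr8:75109346-75109377, plus strand, 153 to 142 bases before the start): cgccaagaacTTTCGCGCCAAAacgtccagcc
*Mcm6* (chr1:128359794-128359825, minus strand, 110 to 99 bases before the start): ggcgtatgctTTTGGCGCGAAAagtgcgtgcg
*Pola1* (chrX:93632276-93632303, minus strand, 138 to 131 bases before the start): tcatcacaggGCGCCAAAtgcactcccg
*Rfc3* (chr5:151651201-151651228, minus strand, 10 to 3 bases before the start): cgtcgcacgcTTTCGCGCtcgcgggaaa
*Uhrf1* (chr17:56304118-56304145, plus strand, 185 to 178 bases before the start): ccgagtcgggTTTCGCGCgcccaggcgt
*Orc1* (chr4:108579417-108579444, plus strand, 27 to 20 bases before the start): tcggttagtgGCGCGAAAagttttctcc
*Cdc6* (chr11:98908003-98908030, plus strand, 138 to 131 bases before the start): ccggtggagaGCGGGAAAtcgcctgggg
The lower-case end of the *Rfc3* line holds a further word, on the opposite strand, at bases 1 to 8 from the start. In *Mcm5* and in *Mcm6* words on opposite strands overlap in a run of 12 bases. *Mcm6* holds a further word nearer its start, and its 150 bases upstream of the start (chr1:128359706-128359855, minus strand) are given whole, with the E2F words in capitals.
*Mcm6* upstream: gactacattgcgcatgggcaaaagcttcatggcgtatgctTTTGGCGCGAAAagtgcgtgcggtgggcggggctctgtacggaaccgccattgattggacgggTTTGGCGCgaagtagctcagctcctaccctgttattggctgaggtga
The first 5 of these genes were *Mcm5*, *Mcm6*, *Pola1*, *Rfc3* and *Uhrf1*, all called higher. *Orc1* and *Cdc6* were not called.

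**Figure D2:**
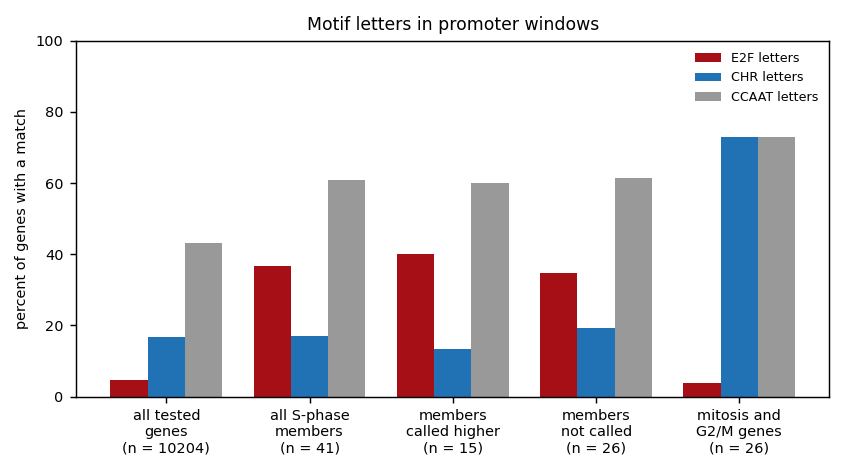
Percent of genes (vertical axis, from 0) whose 300-base promoter window holds at least 1 E2F, CHR or CCAAT word, for all tested genes with a window, the replication genes, those of them called higher or not called, and genes of mitosis and G2/M. E2F letters were found for 36.6% of the replication genes and 3.85% of the mitosis genes, and CHR letters for 17.1% and 73.1%.

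All 6 genes of the MCM2-7 helicase were higher in every *Ptch1*-ablated sample than in any control, with a median log2 fold change of 0.58, and 3 of them were called. *Mcm6* (gene 17219) had 928, 1051 and 652 normalized counts in controls 1, 2 and 3 and 1559.9, 1547 and 1309 in *Ptch1*-ablated samples 1, 2 and 3. Control 3 was the lowest sample and *Ptch1*-ablated sample 3 the lowest of its group, an order that recurred in the other MCM genes. The log2 fold change of *Mcm6* was 0.75 (SE 0.17, adjusted p = 0.0309, edgeR). *Mcm5* had 829, 864 and 604 normalized counts in controls and 1322, 1261 and 1028 in *Ptch1*-ablated samples, with a log2 fold change of 0.65 (SE 0.15, adjusted p = 0.0345, edgeR). *Mcm4* had 1022, 958 and 809 in controls and 1471, 1429 and 1293 in *Ptch1*-ablated samples, with a log2 fold change of 0.59 (SE 0.10, adjusted p = 0.0163, edgeR). The subunits encoded by *Mcm4* and *Mcm6* form, with that of *Mcm7*, the catalytic core of the ring.

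*Mcm3*, *Mcm7* and *Mcm2* did not pass the threshold although their groups did not overlap. *Mcm3* had 793, 802 and 559 normalized counts in controls and 1156, 1161 and 894 in *Ptch1*-ablated samples (log2 fold change 0.58, 95% interval 0.20 to 0.96, adjusted p = 0.0548, edgeR). *Mcm7* had 987, 934 and 784 in controls and 1385, 1221 and 1058 in *Ptch1*-ablated samples (log2 fold change 0.44, 95% interval 0.15 to 0.73, adjusted p = 0.0547, edgeR). *Mcm2* had 939, 1003 and 655 in controls and 1228, 1284 and 1048 in *Ptch1*-ablated samples (log2 fold change 0.46, 95% interval 0.08 to 0.83, adjusted p = 0.0954, edgeR). The intervals of the 6 subunits overlapped throughout, so the data do not order them by the size of their change. Per length, the 6 mRNAs lay within a narrow band in the controls, from 23.9 ± 4.07 TPM for *Mcm5* to 40.4 ± 3.76 TPM for *Mcm7* (SD, n = 3). Together they made up 186.6, 198.2 and 146.5 TPM in controls 1, 2 and 3 and 264.4, 268.4 and 235.2 TPM in *Ptch1*-ablated samples 1, 2 and 3.

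**Figure D3:**
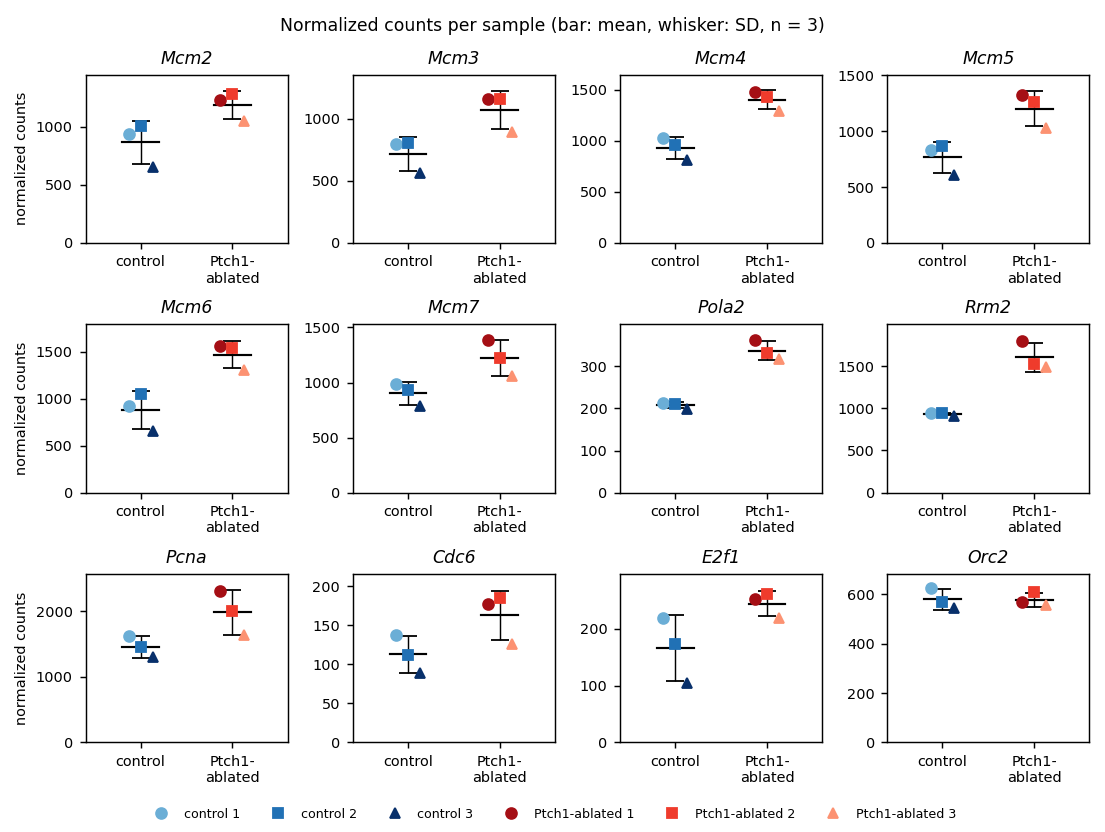
Normalized counts (vertical axes, from 0) in each control and *Ptch1*-ablated sample for the 6 MCM2-7 genes and 6 other replication genes, with the group mean (bar) and SD (whisker, n = 3). The groups lie apart for the MCM genes, *Pola2*, *Rrm2* and *Pcna*, and they overlap for *Cdc6*, *E2f1* and *Orc2*.

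Of the 6 genes that recognize and license origins, 0 were called, although 5 had a log2 fold change above 0 and the median was 0.49. *Cdt1*, which brings the MCM ring to the origin, had 379.6, 333 and 239.7 normalized counts in controls and 417, 489.5 and 401 in *Ptch1*-ablated samples, the only gene of this group whose samples did not overlap (log2 fold change 0.46, 95% interval 0.06 to 0.85, adjusted p = 0.108, edgeR). *Cdc6*, its partner in loading, had 137, 112 and 89.3 in controls and 177, 185 and 126 in *Ptch1*-ablated samples (log2 fold change 0.53, 95% interval 0.035 to 1.02, adjusted p = 0.128, edgeR). *Gmnn*, which encodes geminin, the inhibitor of Cdt1, had 179, 162 and 116 in controls and 309, 208 and 176 in *Ptch1*-ablated samples (log2 fold change 0.60, 95% interval 0.033 to 1.17, adjusted p = 0.132, edgeR). In these genes the highest control reached or neared the lowest *Ptch1*-ablated sample, and the controls themselves spread by more than 1.5 times from lowest to highest.

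The 3 subunits of the origin recognition complex differed in level and in spread. *Orc1*, the subunit whose abundance is known to vary over the cycle, had 108, 73.7 and 50.5 normalized counts in controls and 151, 118 and 87.6 in *Ptch1*-ablated samples, with a log2 fold change of 0.62 but an interval from -0.11 to 1.34. It was also the replication gene with the lowest level per length in controls, 2.28 ± 0.951 TPM (SD, n = 3). *Orc6* had a log2 fold change of 0.22 (95% interval -0.09 to 0.53). *Orc2* had 627, 568 and 545 normalized counts in controls and 569.6, 611 and 556 in *Ptch1*-ablated samples, with a log2 fold change of -0.0034 and an interval from -0.20 to 0.19 that leaves out changes as large as those of the called genes.

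Among the factors that convert the loaded ring into a working helicase, 1 of 6 was called. *Mcm10*, which acts in that step and is not part of the ring, had 182, 184 and 157 normalized counts in controls and 307, 283 and 243 in *Ptch1*-ablated samples. The groups were well apart, and the log2 fold change was 0.67 (SE 0.13, adjusted p = 0.0193, edgeR). *Cdc45* had 172, 161 and 150.4 in controls and 239.8, 213 and 166 in *Ptch1*-ablated samples, with *Ptch1*-ablated sample 3 inside the range of the controls (log2 fold change 0.36, 95% interval -0.0027 to 0.72, adjusted p = 0.151, edgeR). The 4 GINS genes overlapped between the groups and had log2 fold changes of 0.24 for *Gins1*, 0.48 for *Gins2*, 0.27 for *Gins3* and 0.021 for *Gins4*. Their products form a complex of equal parts. *Gins4* lay within a narrow interval around 0 (-0.17 to 0.21), and that of *Gins2* ran from -0.014 to 0.96. These intervals overlapped, and the difference between the genes was not tested. *Gins1* and *Gins3* had few reads, between 51.4 and 97.2 normalized counts in every sample.

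Of the 9 genes of the DNA polymerases and primase, 4 were called higher, and 3 of these encode subunits of the polymerase alpha-primase complex, which starts each new strand. *Pola1* (gene 18968), the catalytic subunit, had 283, 244 and 293 normalized counts in controls and 512, 476 and 390.3 in *Ptch1*-ablated samples (log2 fold change 0.75, SE 0.13, adjusted p = 0.0152, edgeR). *Pola2*, the accessory B subunit, had 214, 209 and 199 in controls and 362, 332 and 318 in *Ptch1*-ablated samples (log2 fold change 0.70, SE 0.094, adjusted p = 0.00944, edgeR). *Prim2*, the large primase subunit, had 184, 188 and 185 in controls and 315, 251 and 287 in *Ptch1*-ablated samples (log2 fold change 0.62, SE 0.11, adjusted p = 0.0182, edgeR). Controls were close together in these genes, within 1.07 times for *Pola2* and 1.02 times for *Prim2*. The remaining subunit of the complex was not called. *Prim1*, the catalytic primase, had 511, 482 and 423 normalized counts in controls and 515, 519 and 444 in *Ptch1*-ablated samples. Its log2 fold change was 0.062, and its 95% interval, -0.18 to 0.30, lay below those of *Pola1*, *Pola2* and *Prim2*. The difference between the subunits was not tested.

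The catalytic subunits of the polymerases that extend the strands had larger point estimates of change than their accessory subunits. *Pole*, of the leading-strand polymerase, had 433, 469.9 and 412 normalized counts in controls and 671, 689 and 617 in *Ptch1*-ablated samples (log2 fold change 0.59, SE 0.084, adjusted p = 0.0107, edgeR). *Pole2*, its accessory subunit, had 89.4, 99.3 and 88.3 in controls and 154, 106 and 103 in *Ptch1*-ablated samples, and *Ptch1*-ablated sample 1 stood above the other samples (log2 fold change 0.39, 95% interval -0.066 to 0.84). *Pold1*, of the lagging-strand polymerase, had 403, 455 and 342 in controls and 511, 521 and 554 in *Ptch1*-ablated samples (log2 fold change 0.40, adjusted p = 0.0540, edgeR). Its groups did not overlap, but it did not pass the threshold. For the accessory subunits *Pold2* and *Pold3* the log2 fold changes were -0.032 (95% interval -0.26 to 0.20) and 0.081 (95% interval -0.11 to 0.27), and both genes overlapped between the groups.

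In the sliding clamp and its loader, 5 of 6 genes did not overlap between the groups, and 1 was called. *Pcna* (gene 18538), the clamp that holds polymerases on DNA, had the highest level per length of the 50 genes, 127 ± 10.5 TPM in controls and 168 ± 21.3 TPM in *Ptch1*-ablated samples (SD, n = 3). Its normalized counts were 1622, 1449 and 1299 in controls and 2314, 2011 and 1633 in *Ptch1*-ablated samples, and *Ptch1*-ablated sample 3 lay only just above control 1. Its log2 fold change was 0.45 (95% interval 0.13 to 0.77, adjusted p = 0.0663, edgeR), and the gene was not called. By staining, the study describes slightly fewer PCNA-positive cells in ablated epithelium at a later time after tamoxifen. After scraping of the epithelium it describes no difference in PCNA or Ki67. Those are counts of cells by protein under other conditions, and the mRNA was not tested against them. Of the loader, *Rfc3* had 295, 319.5 and 279.5 in controls and 402, 419 and 389 in *Ptch1*-ablated samples (log2 fold change 0.44, SE 0.087, adjusted p = 0.0231, edgeR). *Rfc2*, *Rfc4* and *Rfc5* had log2 fold changes of 0.24, 0.33 and 0.24 and did not pass the threshold, with adjusted p values of 0.107, 0.145 and 0.0756 (edgeR). The large subunit *Rfc1* had 1337, 1352 and 1448 normalized counts in controls and 1328, 1403 and 1330.0 in *Ptch1*-ablated samples, a log2 fold change of -0.027 with an interval from -0.18 to 0.12.

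Replication protein A, the heterotrimer that coats unwound DNA, showed the lowest median of the groups of replication genes, 0.20, and 0 of its 3 genes were called. *Rpa1* had 1525, 1412 and 1358 normalized counts in controls and 1574, 1745 and 1601 in *Ptch1*-ablated samples (log2 fold change 0.20, 95% interval 0.025 to 0.37, adjusted p = 0.110, edgeR). *Rpa2* had 280.2, 308 and 201 in controls and 361, 322 and 336 in *Ptch1*-ablated samples (log2 fold change 0.37, 95% interval 0.0043 to 0.74, adjusted p = 0.145, edgeR). The samples of each did not overlap between the groups, and for *Rpa1* the highest control and the lowest *Ptch1*-ablated sample differed by 1.03 times. *Rpa3* had 113, 111 and 130.1 in controls and 130.3, 81.1 and 122 in *Ptch1*-ablated samples, with *Ptch1*-ablated sample 2 the lowest of all samples. Its log2 fold change, -0.087, was the lowest of the 50 genes, with an interval from -0.55 to 0.38.

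Okazaki fragment maturation, the removal of primers and the sealing of lagging-strand fragments, had 3 of its 4 genes called higher and a median log2 fold change of 0.57. *Fen1*, the flap endonuclease, had 421, 431 and 343 normalized counts in controls and 653, 605 and 570.4 in *Ptch1*-ablated samples (log2 fold change 0.61, SE 0.11, adjusted p = 0.0170, edgeR). *Lig1*, the replicative DNA ligase, had 749, 705 and 629.9 in controls and 1124, 1007 and 964 in *Ptch1*-ablated samples (log2 fold change 0.57, SE 0.095, adjusted p = 0.0146, edgeR). *Dna2*, a nuclease and helicase that trims long flaps, had 106, 98.3 and 102 in controls and 141, 163 and 149 in *Ptch1*-ablated samples (log2 fold change 0.56, SE 0.13, adjusted p = 0.0314, edgeR). In all of these, and in *Rnaseh2a*, which encodes the catalytic subunit of ribonuclease H2, every *Ptch1*-ablated sample was above every control. *Rnaseh2a* was not called (log2 fold change 0.33, 95% interval 0.12 to 0.55, adjusted p = 0.0542, edgeR).

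Nucleotide supply was the only group of replication genes in which every listed gene was called, 4 of 4. *Rrm2* (gene 20135), the small subunit of ribonucleotide reductase and the one whose abundance rises in S phase, had 941, 944 and 914 normalized counts in controls 1, 2 and 3 and 1805, 1531 and 1487 in *Ptch1*-ablated samples 1, 2 and 3. The controls lay within 1.03 times of each other, and the lowest *Ptch1*-ablated sample was 1.58 times the highest control, the widest gap among the 50 genes. Its log2 fold change was 0.78 (SE 0.087, adjusted p = 0.00647, edgeR). *Rrm1*, the large subunit, had 1705, 1547 and 1652 in controls and 2869.7, 2374 and 2210.1 in *Ptch1*-ablated samples (log2 fold change 0.60, SE 0.10, adjusted p = 0.0156, edgeR). *Tk1*, the thymidine kinase of S-phase cells, had 369, 453 and 444 in controls and 609, 542 and 594 in *Ptch1*-ablated samples (log2 fold change 0.46, SE 0.10, adjusted p = 0.0287, edgeR). *Tyms*, thymidylate synthase, had the smallest change of the 4 and of all 18 called genes, with 487, 468 and 427 normalized counts in controls and 624, 572 and 571 in *Ptch1*-ablated samples (log2 fold change 0.35, SE 0.083, adjusted p = 0.0343, edgeR). The mRNAs of the 4 genes summed to 133.3, 141.2 and 143.8 TPM in controls 1, 2 and 3 and 219.7, 195.2 and 205.9 TPM in *Ptch1*-ablated samples 1, 2 and 3.

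Of the genes that copy chromatin behind the fork, 2 of 3 were called, and their median log2 fold change, 0.68, was the highest among the groups. *Uhrf1*, which directs maintenance DNA methylation to newly made strands, had 997, 956 and 656 normalized counts in controls and 1432, 1519.8 and 1226 in *Ptch1*-ablated samples (log2 fold change 0.68, SE 0.16, adjusted p = 0.0362, edgeR). Control 3 was well below the other controls for this gene. *Chaf1a*, the large subunit of chromatin assembly factor 1, had 366, 352 and 289 in controls and 548, 556 and 513 in *Ptch1*-ablated samples (log2 fold change 0.68, SE 0.10, adjusted p = 0.0120, edgeR). *Chaf1b*, another subunit of the same factor, had 243, 204 and 153 in controls and 299.8, 292 and 242 in *Ptch1*-ablated samples, with control 1 just above *Ptch1*-ablated sample 3 (log2 fold change 0.47, 95% interval 0.058 to 0.89, adjusted p = 0.111, edgeR), and was not called.

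Among the 50 genes, the 3 regulators of the G1/S transition were not called. Some regulators of the wider list described below were called. *E2f1*, a transcription factor that activates many of the genes above, had 219.6, 174 and 105 normalized counts in controls and 253, 261 and 219 in *Ptch1*-ablated samples. The controls differed among themselves by 2.09 times, and the log2 fold change of 0.56 had an interval from -0.012 to 1.12 (adjusted p = 0.156, edgeR). The cyclin genes *Ccne1* and *Ccne2*, whose products drive Cdk2 at the G1/S transition, had log2 fold changes of 0.23 (95% interval -0.14 to 0.60) and 0.33 (95% interval -0.0052 to 0.66). *Ccne2* did not overlap between the groups, with 132, 124 and 117 normalized counts in controls and 175, 159 and 134 in *Ptch1*-ablated samples.

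**Figure D4:**
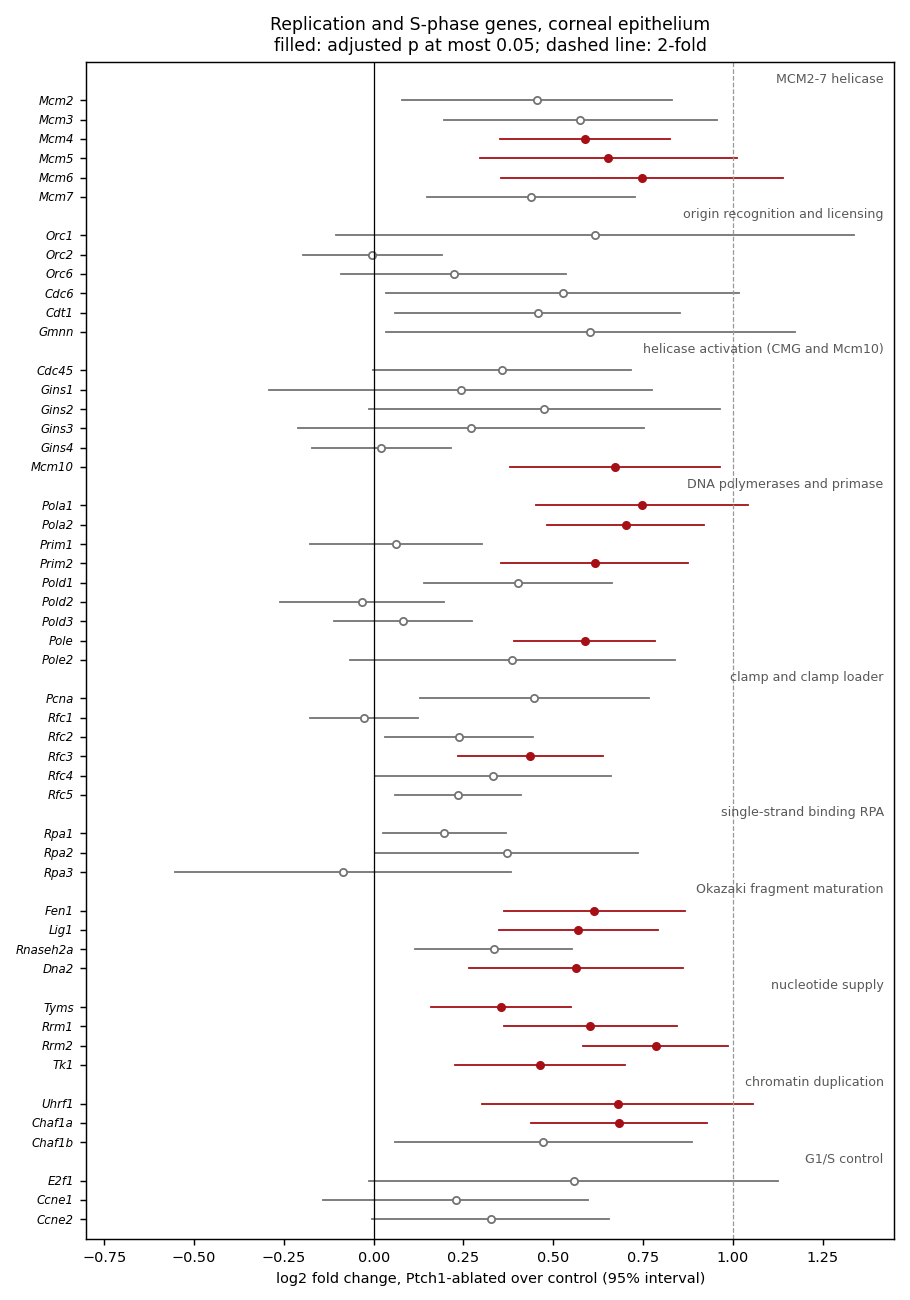
Log2 fold change of *Ptch1*-ablated over control (horizontal axis) for each of the 50 genes, with its 95% interval from the edgeR fit, ordered by role. Filled points are the 18 genes at an adjusted p of at most 0.05, all to the right of 0, and the dashed line marks a 2-fold change, which no point reaches.

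The replication genes also varied together among samples of the same group. Control 3 was the lowest of the controls for 37 of the 50 genes, while over all tested genes it was the lowest for 4433 of 12999. In *Ptch1*-ablated samples the highest value was in sample 1 for 28 genes, in sample 2 for 20 and in sample 3 for 2. The same count over all tested genes is not given here, so this order is not shown to be particular to the replication genes. Relative to the mean of the controls, the median over the 50 genes was 0.087, 0.052 and -0.12 (log2) in controls 1, 2 and 3 and 0.55, 0.46 and 0.30 in *Ptch1*-ablated samples 1, 2 and 3. The spread within the controls was widest in the MCM2-7, licensing, chromatin and G1/S genes, in which the median of control 3 was -0.33, -0.34, -0.36 and -0.33. It was narrowest in nucleotide supply, with 0.037, 0.021 and -0.0064. Control 3 also had the highest summed level of 9 stromal keratocyte markers, 55.9 TPM against 7.84 to 12.4 TPM in the other 5 samples, of which *Col1a2* (1.69, 0.91 and 25.98 TPM in controls) and *Vim* (2.23, 1.71 and 20.8 TPM) made up most. The defining keratocyte marker *Kera* was at or below 0.07 TPM in every sample. The part of these cells in the low values of control 3 was not tested.

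Genes of mitosis and G2/M, which act after replication, had a different order within the controls. All 30 listed genes had a log2 fold change above 0 and the median was 0.57, with 7 called higher and 0 lower. Among the controls, however, all 30 were highest in control 3 and 29 were lowest in control 1. The medians relative to the control mean were -0.36, -0.060 and 0.40 in controls 1, 2 and 3 and 0.75, 0.52 and 0.67 in *Ptch1*-ablated samples 1, 2 and 3. Control 3 thus had the lowest median of the controls for the replication genes and the highest for the mitotic genes. Without control 3 the median of the mitotic genes was 0.82 with 23 of 30 called, and that of the 50 replication genes was 0.32 with 10 called. The count of mitotic calls depended on the fit, with 1 of 30 without control 1, 0 without control 2, and 2, 1 and 2 without *Ptch1*-ablated samples 1, 2 and 3, while DESeq2 called 23. Over all tested genes the share called higher was 3.15%, 0.514% and 3.40% without controls 1, 2 and 3. It was 4.91%, 4.67% and 5.71% without *Ptch1*-ablated samples 1, 2 and 3, and 10.9% with DESeq2. The called mitotic genes with the smallest p were *Cdk1* (log2 fold change 0.81), the kinase of mitotic entry, *Mki67* (0.73), the antigen of cycling cells, *Top2a* (0.74), *Mad2l1* (0.66) and *Tpx2* (0.74).

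**Figure D5:**
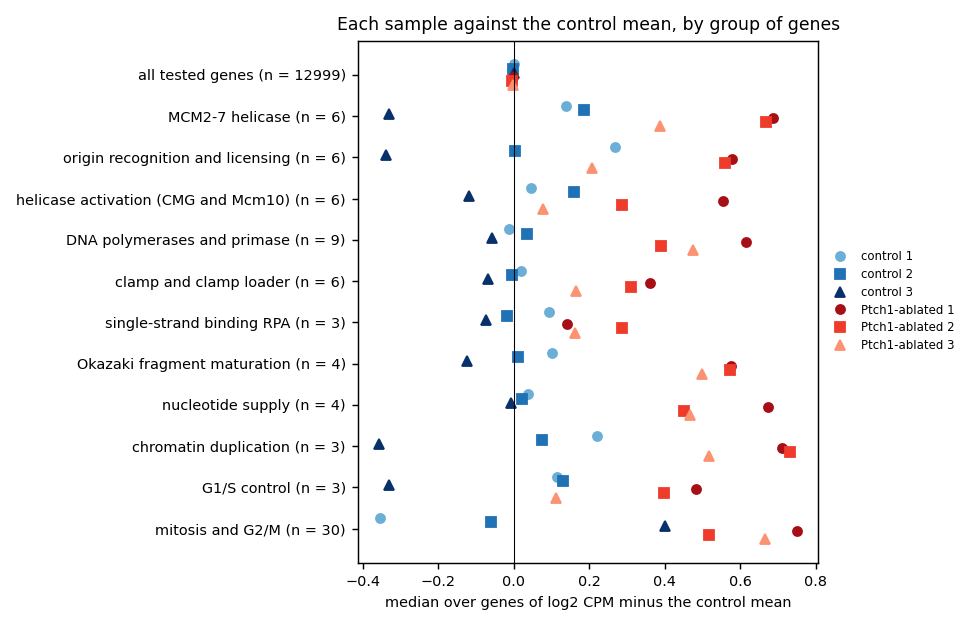
Median over the genes of each group of log2 CPM minus the mean of the controls (horizontal axis), with 1 point per sample. For every group of replication genes control 3 is the leftmost point, and for the 30 mitosis and G2/M genes it is the rightmost control at 0.40, while the medians over all tested genes stay near 0.

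The number of called replication genes rested strongly on single samples, whereas the direction did not. Leaving out control 2 left 1 of the 50 genes called, *Rrm2*, in a fit that called 0.514% of all genes higher. Leaving out control 1 left 9, control 3 left 10, *Ptch1*-ablated sample 2 left 11 and *Ptch1*-ablated sample 1 left 13, all of them among the 18. In the same order, these fits called 3.15%, 3.40%, 4.67% and 4.91% of all tested genes higher, against 7.61% with all samples. Without *Ptch1*-ablated sample 3 there were 18 calls, of which 15 were the same, and 5.71% of all tested genes were called higher. In each of these fits between 46 and 48 of the 50 genes had a log2 fold change above 0, and the median ran from 0.32 (without control 3) to 0.52. Over 15 alternative fits, *Rrm2* was called in 15, and *Mcm4*, *Pola1*, *Pola2*, *Pole*, *Fen1*, *Lig1*, *Rrm1* and *Chaf1a* were each called in 14. The calls of *Tyms*, *Dna2* and *Tk1* were kept in 7, 7 and 8.

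Other genes of the same processes moved less uniformly. Of 26 further replication factors, 8 were called higher and 0 lower, with a median log2 fold change of 0.25. *Topbp1* (0.58) and *Ticrr* (0.63), which act in origin firing, *Clspn* (0.75) and *Tipin* (0.57) of the fork protection complex, and *Wdhd1* (0.67), which links polymerase alpha to the helicase, had the smallest p. Of 13 further genes of nucleotide synthesis, 2 were called higher, *Ctps* (0.82), which makes CTP, and *Shmt1* (0.44), which supplies one-carbon units, and 1 was called lower. The gene called lower was *Tk2*, the mitochondrial thymidine kinase, with 692, 747 and 626 normalized counts in controls and 468, 478 and 509 in *Ptch1*-ablated samples (log2 fold change -0.50, SE 0.088, adjusted p = 0.0166, edgeR). Its direction was opposite to that of *Tk1*. Of 12 further genes of chromatin duplication, 3 were called higher and 0 lower, namely *Hells* (0.94), *Asf1b* (0.72) and the maintenance methyltransferase *Dnmt1* (0.38), with a median of 0.27. Of 25 genes of the replication checkpoint and S-phase repair, 11 were called higher and 0 lower, with a median of 0.31, led by *Brca1* (0.64), *Msh6* (0.69), *Brca2* (0.72), *Rad18* (0.71) and *Blm* (0.69). Without control 2 the genes called higher fell to 1 of the further replication factors, 1 of nucleotide synthesis, 0 of chromatin duplication and 0 of checkpoint and repair, and *Tk2* was no longer called lower. Leaving out any other sample left 5 or 6, 1 or 2, 1 to 4 and 6 to 9 in these 4 lists. The share of all tested genes called higher was 0.514% without control 2 and 3.15% to 5.71% without any other sample.

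The wider list of G1/S regulators moved in both directions. Of 32 tested genes, 6 were called higher and 1 lower, with a median log2 fold change of 0.037, which fell below 0 with library totals or on the TPM scales. *Myc*, a transcription factor that promotes growth and entry into S phase, had 702, 658 and 705 normalized counts in controls and 1622, 1222 and 1037 in *Ptch1*-ablated samples (log2 fold change 0.91, SE 0.15, adjusted p = 0.0153, edgeR). *E2f8* (0.78), a repressor of the E2F family, *E2f3* (0.52) and the pocket protein gene *Rbl1* (0.37) were higher as well. *Ccnd1*, which encodes cyclin D1, the G1 cyclin that answers to mitogens, was lower, with 10606, 9922 and 8793 normalized counts in controls and 5685, 7613 and 6559 in *Ptch1*-ablated samples (log2 fold change -0.56, SE 0.12, adjusted p = 0.0267, edgeR). Its groups did not overlap, and its change was opposite in sign to the median of the replication genes. Without control 2, 0 of the 32 genes were called in either direction, and with another sample left out 2 to 5 were called higher. *Ccnd1* also lost its call without control 1 or *Ptch1*-ablated sample 3.

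Markers of the basal epithelium and of other cells were read beside these genes. The 9 markers of the basal epithelium, the layer in which corneal cells divide, summed to 27817 to 28850 TPM in controls. The sum was 31378 to 34519 TPM in *Ptch1*-ablated samples, and none of the 9 was at 0 in all samples. *Krt14*, *Itga6*, *Itgb4*, *Itgb1* and *Cdh3* were called higher, 5 of 9, against 7.61% of all tested genes. The other 4 were not called, with log2 fold changes of 0.042 for *Krt5*, -0.030 for *Trp63*, 0.046 for *Col17a1* and 0.99 for *Krt15*. *Krt14* and *Krt5* are in the corneal epithelium list as well. The largest change among them was that of the basal keratin gene *Krt14*, at 534, 535 and 644 TPM in controls and 5798, 3254 and 2420.4 TPM in *Ptch1*-ablated samples. The summed level of 9 limbal markers was 393.8 to 781.5 TPM in controls and 550.1 to 820.4 TPM in *Ptch1*-ablated samples, with 0 called higher and *Abcg2* called lower. Conjunctival markers (7 genes) summed to 1403 to 2337 TPM and 2188 to 4683 TPM, and the highest value was in *Ptch1*-ablated sample 1. None of them was called higher, *Krt13*, *Krt4* and *Krt19* included. *Krt8* was called lower (log2 fold change -0.91, adjusted p = 0.0139, edgeR). The goblet cell gene *Spdef* was at or below 0.38 TPM throughout. Immune markers (10 genes) summed to 127.6 to 168.1 TPM and 159.2 to 218.7 TPM, while *Ptprc*, the marker of all leukocytes, was at or below 0.20 TPM in every sample. Melanocyte markers lay between 8.19 and 10.1 TPM and vessel markers at or below 0.32 TPM in every sample. The part of these cells in the higher level of the replication genes was not tested.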

How the data were processed

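Bulk RNA-seq of corneal epithelial cells gave 3 control and 3 *Ptch1*-ablated samples, grouped by their labels. Per the labels, reads were processed with Bowtie2 2.2.5 and RSEM 1.2.12 on mm9. The authors deposited RSEM expected counts, not scaled for depth, and TPM values, scaled within each sample for length and depth. A further 6 per-sample columns and 6 columns of group averages were not used.

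Expected counts, of which 39.4% of those above 0 were not whole because RSEM divides reads shared between similar genes, were rounded. Genes passing filterByExpr were tested with edgeR 4.0.16 in R 4.3.3 (TMM factors 0.960 to 1.03, quasi-likelihood test), and p was adjusted over all 12999 genes by the Benjamini-Hochberg method. Normalized counts are CPM on TMM-scaled libraries times the mean scaled library size, and 95% intervals and standard errors come from the same fit. P-values measure the spread between 3 samples a group. The members and lists were chosen with earlier results of these data known. All members are named, with at most 5 called genes of each further list by smallest p. Alternatives were DESeq2 1.42.0, limma 3.58.1 with voom or on log2 TPM, other scalings and filters, a replicate block and each sample left out. The procedure was tested on simulated data.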

Additional observations from a re-analysis of the deposited data

How the results depend on the processing

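At an adjusted p of at most 0.05, 18 of the 50 replication genes were called higher with limma-voom, RLE size factors, library totals, no filter beyond 1 count and at least 10 counts in every sample, and the same 18 genes in each. DESeq2 called 23, among them all 18, and limma on log2(TPM + 1) or log2(TPM + 0.1) called 16, with 15 of the 18. Leaving out 1 sample at a time gave 1 to 18 calls, the lowest without control 2, and medians of 0.32 to 0.52. These fits called 0.514% to 5.71% of all tested genes higher, the lowest share also without control 2. The median without control 3, 0.32, was the only one to move by more than the spread of the controls. With library totals in place of TMM, the median of all tested genes was -0.057 and calls over all genes were 789 higher and 1008 lower, against 989 and 833, while the median of the replication genes was 0.40. The replicate numbers shared by the labels did not pair the samples (correlations of their deviations 0.11, -0.014 and 0.019, and controls 1 and 3 but not control 2 correlated best with their own number). A fit with a replicate block called 24 of the 50 genes, 17 of the 18 among them. The count called lower and the count called with a 2-fold change were 0 under every alternative.

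Of 750 values of single genes under the alternatives, 661 kept their direction and side of the threshold, 56 lost and 17 gained a call, and 16 changed sign, in 6 genes that were not called. *Orc2* was 0.00043 with DESeq2, 0.00041 with RLE factors and 0.00096 with at least 10 counts, and -0.049 to 0.055 with 1 sample left out. *Gins4* was -0.027 with library totals, -0.017 on either TPM scale, and -0.023 to 0.054 with 1 sample left out. Leaving out 1 sample also gave -0.013 to 0.13 for *Prim1*, -0.11 to 0.034 for *Pold2*, -0.056 to 0.0077 for *Rfc1* and -0.21 to 0.094 for *Rpa3*. The cause was not tested.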
